A study of Mus musculus with 27 samples.

Results

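The MCM and GINS genes encode the subunits of the helicase that opens DNA at the replication fork, and their expression was followed here in the fetal brain of 3 mouse strains. The 10 genes, Mcm2 to Mcm7 and Gins1 to Gins4, were taken by symbol from a table of read counts for 55416 genes, and each symbol was found in 1 row. The proteins of Mcm2 to Mcm7 form a ring that is loaded around DNA, before replication begins, by the origin recognition complex with Cdc6 and Cdt1. When a cell enters S phase, Cdc45 and the GINS complex bind the loaded ring and turn it into the active helicase, known as CMG. GINS is a complex of the 4 proteins of Gins1 (also called Psf1), Gins2 (Psf2), Gins3 (Psf3) and Gins4 (Sld5). In the fetal brain these genes are used by the dividing progenitors that line the ventricles, while neurons have left the cell cycle. Many genes of replication, those of the MCM ring among them, are textbook targets of the E2F transcription factors.

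RNA was sequenced from the whole brain of female fetuses at 3 gestational ages, d12, d15 and d17, where d1 is the day of the vaginal plug. Fetuses of the inbred strains AKR/J and C57BL/6J and of B6.Cg-Cav1tm1Mls/J, named Cav1-null, were compared, with 3 libraries for each strain and day and mothers of about 8 weeks of age. Cav1-null mice carry, in every tissue and from conception, a targeted deletion of Cav1, the gene of the membrane protein caveolin-1, on the genetic background of C57BL/6J. AKR/J and Cav1-null were chosen as short-lived strains and C57BL/6J as the long-lived strain to which they were compared. The 3 libraries of a group were labelled as separate samples, but the labels do not tie them to litters, so that the tests measure only the spread between these samples.

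Each library held 26363697 to 39759702 reads on genes, and the libraries of a group correlated at 0.949 to 0.984. Expression is given as CPM, the usual count of a gene relative to the TMM-scaled total of its library. Cav1 ranged from 0 to 0.551 CPM in the Cav1-null libraries and from 6.36 to 43 CPM in the others. Summed markers of neurons were at 1780 CPM or more and those of radial glia at 1160 CPM or more in each library, whereas markers of skeletal muscle were at 2.45 to 50.4 CPM and those of microglia at 17.5 to 47.6 CPM. The d12 libraries of AKR/J stood apart, since 11 erythroid genes took 6.9%, 3.56% and 13.6% of their reads against 0.178% to 0.554% in the d12 libraries of the other strains. Their summed trophoblast markers were at 742, 78.6 and 34.5 CPM and their yolk sac markers at 1480, 188 and 23.5 CPM, compared with at most 64 and 2.66 CPM in the other d12 libraries. The part of these cells in the values of AKR/J on d12 was not tested.

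All 10 genes are protein coding and lie on 6 chromosomes of the GRCm39 build (GENCODE M39 annotation). Of the ring genes, Mcm2 lies on chr6:88860452-88875762 (minus strand), Mcm3 on chr1:20870791-20890536 (minus), Mcm4 on chr16:15440211-15455264 (minus), Mcm5 on chr8:75836140-75856231 (plus), Mcm6 on chr1:128259311-128287516 (minus) and Mcm7 on chr5:138162844-138170684 (minus). Of the GINS genes, Gins1 lies on chr2:150747320-150773202 (plus), Gins2 on chr8:121305372-121316043 (minus), Gins3 on chr8:96360081-96392066 (plus) and Gins4 on chr8:23715215-23727777 (minus). The end of Gins2 overlaps Gse1, a gene of the other strand, over 2758 bases, and Mcm7 overlaps Cops6 over 475 bases and Ap4m1 over 448 bases, also of the other strand. Gins1 overlaps the antisense lncRNA Gm75704, which was not in the count table, over 4271 bases. The strand setting of the counting was not given in the sources used here, so that reads of these overlaps cannot be assigned with certainty.

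Promoter sequences from RefSeq (GRCm38.p6), of 250 bases before to 50 bases after the start site, were at hand for Mcm2, Mcm3, Mcm5, Mcm6, Gins3 and, with 2 start sites, Mcm7. They were searched on both strands for 4 words of 8 letters that E2F proteins are known to bind, TTTCCCGC, TTTCGCGC, TTTGCCGC and TTTGGCGC, which can overlap one another. A word was found in 5 of these 7 windows, whereas 2.26% of all 32851 windows held one. The word CCAAT was found in 7 of the 7 windows and in 37.4% of all windows. A match of letters is not a measure of binding. Stretches of 30 bases on the strand of the gene, with the words in capitals, are shown for the members whose windows held one. Where a window held more words, 1 stretch is shown.
Mcm3, chr1:20890499-20890528 (minus): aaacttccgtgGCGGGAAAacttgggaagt
Mcm5, chr8:75835973-75836002 (plus), with 2 overlapping words: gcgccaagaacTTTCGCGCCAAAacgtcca
Mcm6, chr1:128287534-128287563 (minus), with 2 overlapping words: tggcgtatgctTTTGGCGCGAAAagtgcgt
Mcm7, first start site, chr5:138170111-138170140 (minus): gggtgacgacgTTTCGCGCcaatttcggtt
Gins3, chr8:96360135-96360164 (plus): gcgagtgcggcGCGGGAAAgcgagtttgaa

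Across development the 10 genes fell in each strain, and all 10 were DE between d12 and d17 in every strain (edgeR's quasi-likelihood test, Benjamini-Hochberg adjusted p under 0.05 over all genes). Of all genes tested, 22.7% were lower on d17 for AKR/J, 11.7% for C57BL/6J and 23.3% for Cav1-null, while 23.1%, 14.5% and 20.8% were higher. The median log2 fold change of the 10 genes was -1.94 for AKR/J, -1.77 for C57BL/6J and -1.89 for Cav1-null, with a median of all genes of -0.01, -0.02 and -0.04. Mcm3 changed most among the ring genes of C57BL/6J and Cav1-null (-2.68 in both, SE 0.42 and 0.19, adjusted p = 0.00417 and 3.01e-05), and Gins2 was the GINS gene with the largest change in each strain. Gins4 changed least in C57BL/6J and Cav1-null, and Mcm7 least in AKR/J. With library sizes alone in place of TMM, 8 of the 10 were called in AKR/J, without Mcm7 and Gins4. Cell type markers moved over the same days. Of 9 radial glia genes, 7 were lower on d17 in each strain and 1, 1 and 2 were higher (AKR/J, C57BL/6J, Cav1-null). Of 4 intermediate progenitor genes, 2, 3 and 4 were lower, and of 8 neuron genes, 7, 4 and 4 were higher. The part of these cells in the changes of the 10 genes was not tested. In the RNA of a whole brain, fewer cells that use a gene and less RNA of the gene per cell cannot be told apart.

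**Figure D1:**
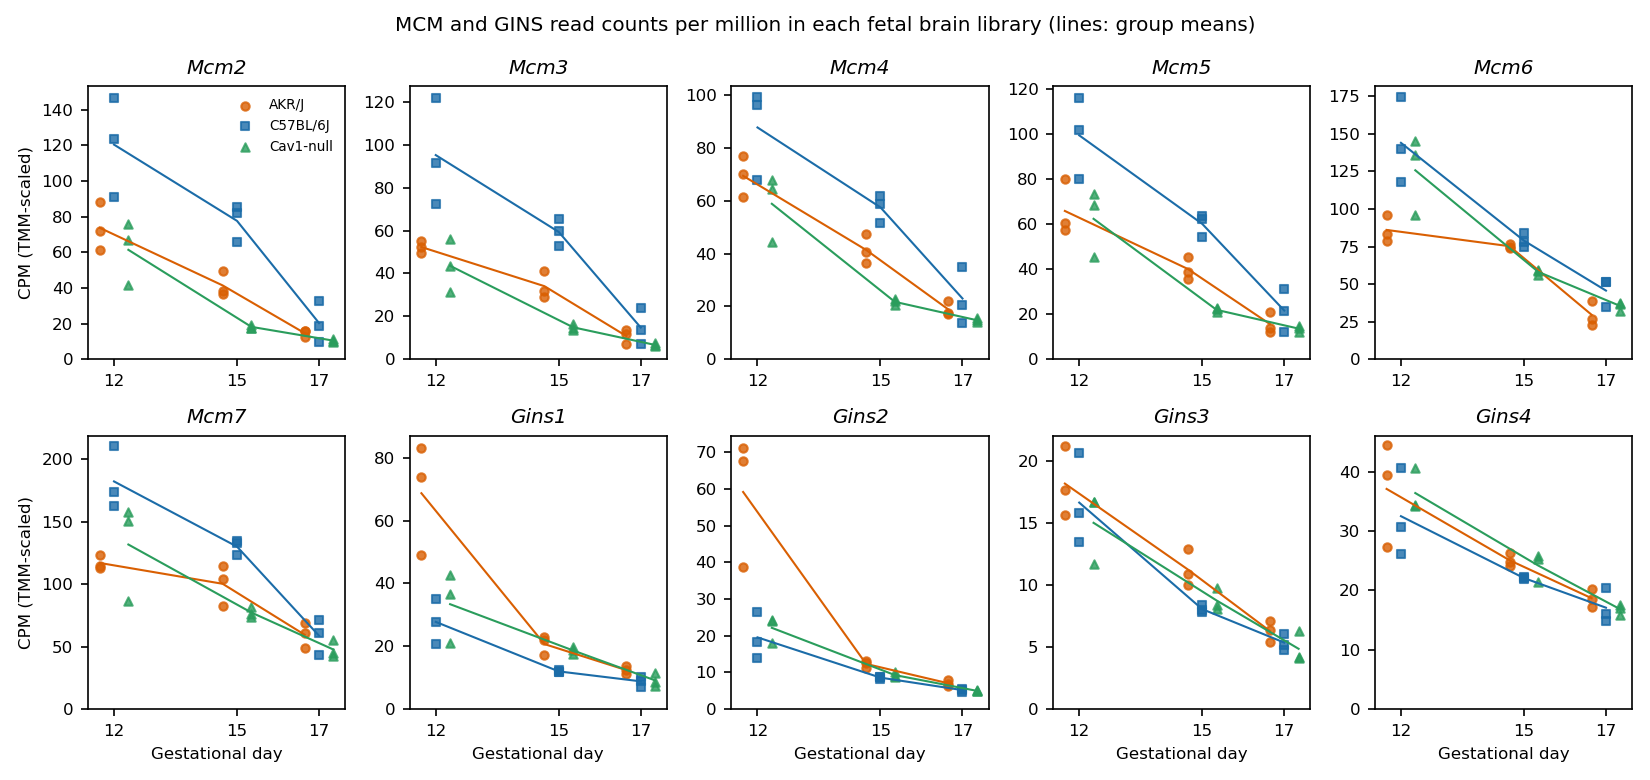
Expression (CPM, linear axes from 0) of each of the 10 genes on d12, d15 and d17 in AKR/J, C57BL/6J and Cav1-null, with a point for each library and a line through the mean of 3 libraries. Each gene is lower on d17 than on d12 in each strain, and the ring genes of C57BL/6J on d15 lie above those of Cav1-null, while Gins1 lies below.

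In the early phase, from d12 to d15, 7 to 10 of the genes were DE in a strain. In AKR/J, 7 of the 10 were lower on d15, where 14% of all genes tested were. With library sizes alone, 2 of them were called, Gins1 and Gins2, and the median of all genes moved to 0.46. In C57BL/6J, 8 of the 10 were lower (7.8% of all genes), and in Cav1-null all 10 were (11.8% of all genes). In the late phase, from d15 to d17, 10 genes fell in AKR/J (10.4% of all genes were lower), 7 in C57BL/6J (5.58%) and 10 in Cav1-null (12.8%). None of the 10 was higher on a later day, where 14.8%, 7.08% and 11.6% of all genes in the early phase and 11.6%, 7.46% and 14.5% in the late phase were, in the same order of strains (edgeR's quasi-likelihood test). All their log2 fold changes were below 0, other than those of Mcm6 and Mcm7 in the early phase for AKR/J with library sizes alone, at 0.2 and 0.18. In TMM-scaled CPM, the libraries of both days did not overlap for any gene and comparison of days other than Mcm7 between d12 and d15 in AKR/J. Of all genes tested, 46.6%, 39.6% and 58.3% did not overlap in AKR/J (early, late, and d12 to d17), 44.3%, 41.5% and 46% in C57BL/6J and 39.6%, 41.8% and 54.7% in Cav1-null. With library sizes alone, the d12 and d15 libraries of AKR/J overlapped for all members other than Gins1 and Gins2.

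Single libraries decided the counts for C57BL/6J. Its early-phase count was 0 without any one of the d15 libraries, where at most 6 of all genes were called, and 3 without d12 replicate 1. Its late-phase count was 0 without d15 replicate 1, d15 replicate 2 or d17 replicate 3, and 1, Mcm7, without d15 replicate 3. For AKR/J, the early-phase count was 2, Gins1 and Gins2, without d15 replicate 1 and 4 without d15 replicate 2, and the late-phase count was 6 without d17 replicate 2, where Mcm7, Gins2, Gins3 and Gins4 were no longer called. In Cav1-null it was 7 to 10 in the early phase, with Mcm7 and Gins1 lost without any library other than d12 replicate 3, and 10 in the late phase whichever library was left out, but 6 there in 1 model of all 27 libraries, with Mcm2, Mcm4, Mcm5 and Gins4 lost. Cav1-null d12 replicate 3 stood apart from the other 2 libraries of its group. Its ring genes summed to 346 CPM, against 576 and 529, its mitosis genes to 1270, against 2480 and 2560, its intermediate progenitor genes to 158, against 386 and 352, and its genes of deoxynucleotide supply to 361, against 621 and 681. Without it, 10 members were called in the early phase.

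Mcm2, a ring subunit at the interface through which the ring opens, was among the genes with the steepest fall. In C57BL/6J its expression was 91.1, 146.4 and 123.6 CPM on d12, 85.4, 81.9 and 65.5 CPM on d15, and 32.7, 9.5 and 18.7 CPM on d17. In Cav1-null it was 75.6, 66.9 and 41.6 CPM on d12, 17.5, 17.7 and 19.3 CPM on d15, and 9.7, 10.2 and 11.4 CPM on d17. On d15 the 3 libraries of C57BL/6J lay between 65.5 and 85.4 CPM, whereas those of Cav1-null, at 17.5 to 19.3 CPM, were already within the range of C57BL/6J on d17. In AKR/J, Mcm2 was at 72.1, 88 and 61.1 CPM on d12, 36.5, 38.3 and 49.4 CPM on d15 and 16.1, 15.6 and 12.2 CPM on d17, with each day apart from the others. The log2 fold change of the early phase was -0.87 (SE 0.19, adjusted p = 0.0118) in AKR/J, -0.67 (SE 0.18, adjusted p = 0.0503) in C57BL/6J and -1.72 (SE 0.18, adjusted p = 0.000604) in Cav1-null. In the late phase it was -1.46 (SE 0.14, adjusted p = 0.000843), -1.91 (SE 0.38, adjusted p = 0.023) and -0.77 (SE 0.11). The early value of C57BL/6J missed the threshold, and all the others passed it.

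Mcm3, Mcm4 and Mcm5 followed the same course. Mcm5 forms with Mcm2 the gate through which DNA enters the ring. Their early-phase log2 fold changes were -0.65 to -0.78 in AKR/J, -0.65 to -0.76 in C57BL/6J and -1.41 to -1.52 in Cav1-null, all DE. In the late phase they were -1.09 to -1.62 in AKR/J, -1.29 to -1.98 in C57BL/6J and -0.53 to -1.14 in Cav1-null, again all DE. The d17 libraries of C57BL/6J were spread widely for these genes, with Mcm3 at 23.8, 7 and 13.5 CPM, and replicate 2 was the lowest for each of them. In AKR/J, the early-phase call of Mcm3 was lost without d12 replicate 1, d12 replicate 3, d15 replicate 1 or d15 replicate 2, and that of Mcm5 without any one d15 library.

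Mcm6 and Mcm7, which with Mcm4 make up the part of the ring that shows helicase activity on its own, were not called in the early phase of AKR/J. Mcm6 was at 78.9, 96.2 and 83.1 CPM on d12 and 74.5, 77 and 74.2 CPM on d15 in that strain, a log2 fold change of -0.22 (SE 0.15, adjusted p = 0.281), and then at 39, 26.8 and 23 CPM on d17 (-1.31, SE 0.17, adjusted p = 0.00175). In C57BL/6J, Mcm6 fell from 117.9, 139.9 and 174.3 CPM on d12 to 78.2, 74.7 and 83.9 CPM on d15 (-0.91, SE 0.15, adjusted p = 0.0206) and to 51.1, 34.8 and 51.2 CPM on d17 (-0.75, SE 0.16, adjusted p = 0.026). The d12 and d15 libraries of AKR/J lay close together, and those of d17 were all lower. In Cav1-null, Mcm6 was at 145.3, 135.8 and 96.2 CPM on d12, 59.5, 59 and 55.9 CPM on d15 and 32.3, 36.8 and 37.2 CPM on d17.

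Mcm7 was the ring gene with the highest level per length. In AKR/J it was at 114.8, 123.3 and 112.8 CPM on d12 and 103.8, 82.2 and 114.8 CPM on d15, days that overlapped (-0.26, SE 0.16, adjusted p = 0.276), and it fell to 69.2, 60.6 and 48.6 CPM on d17 (-0.71, SE 0.14, adjusted p = 0.00938). In C57BL/6J it was at 162.8, 210.3 and 173.5 CPM on d12, 134.2, 132.8 and 123 CPM on d15 and 71.5, 43.5 and 61.1 CPM on d17. In Cav1-null it was at 158.1, 150.2 and 86.8 CPM, 81.8, 76.1 and 73.9 CPM, and 42.6, 45.2 and 55.2 CPM on these days. Both changes were DE in these strains, at -0.52 (SE 0.11, adjusted p = 0.032) and -1.11 (SE 0.18, adjusted p = 0.0117) in C57BL/6J and at -0.74 (SE 0.18, adjusted p = 0.0184) and -0.67 (SE 0.09) in Cav1-null. The early values of Mcm6 and Mcm7 in AKR/J, which were not called, depended on the scaling and were 0.2 and 0.18 with library sizes alone (adjusted p = 0.616 and 0.64).

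**Figure D2:**
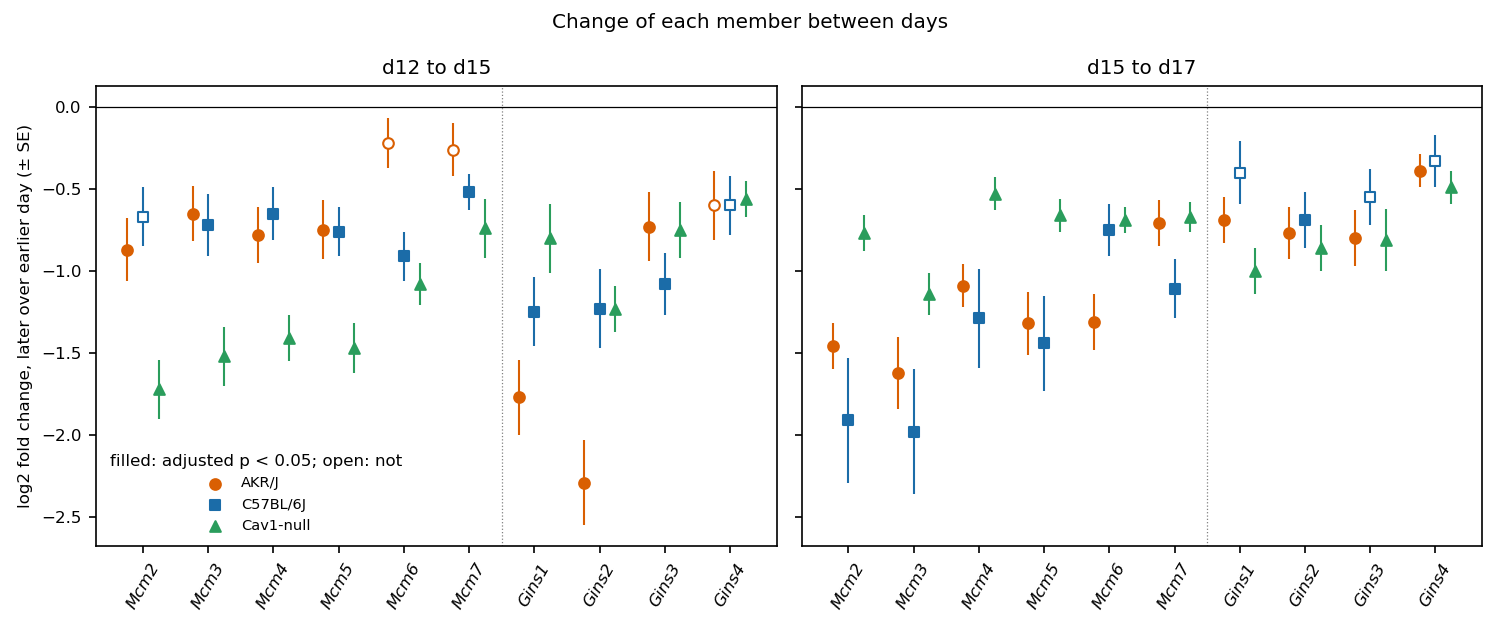
Log2 fold changes of the 10 genes in the early phase (d12 to d15) and the late phase (d15 to d17) of each strain, as points with bars of 1 SE, filled where the adjusted p was under 0.05 and open otherwise. Mcm2 to Mcm5 lie lower in the early than in the late phase of Cav1-null, and in the other strains they lie lower in the late phase, with Mcm2 at -1.72 and -0.77 in Cav1-null and -0.67 and -1.91 in C57BL/6J.

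The GINS genes had median log2 fold changes, early and late, of -1.25 and -0.73 (AKR/J), -1.15 and -0.47 (C57BL/6J) and -0.78 and -0.84 (Cav1-null). Gins1 was at 83.2, 49 and 74 CPM on d12 of AKR/J, 22.1, 17.2 and 22.8 CPM on d15 and 12.3, 13.7 and 11.2 CPM on d17. In C57BL/6J it was at 27.6, 20.6 and 35.1 CPM, 11.7, 12.6 and 11.7 CPM, and 7.1, 10.3 and 9.1 CPM, and in Cav1-null at 36.6, 42.7 and 20.9 CPM, 17.4, 18.9 and 19.7 CPM, and 7.4, 8.6 and 11.4 CPM. AKR/J libraries were the highest on d12 and did not overlap those of the other strains. Its early fall was -1.77 (SE 0.23, adjusted p = 0.00215) in AKR/J, -1.25 (SE 0.21, adjusted p = 0.0202) in C57BL/6J and -0.8 (SE 0.21, adjusted p = 0.0258) in Cav1-null. The late change of Gins1 was -0.69 (SE 0.14, adjusted p = 0.00994), -0.4 (SE 0.19, adjusted p = 0.185) and -1 (SE 0.14), and that of C57BL/6J was not called.

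Gins2, which overlaps Gse1, had the steepest early fall of the 10 genes in AKR/J. It was at 71.1, 38.7 and 67.6 CPM on d12 of AKR/J and at 12.6, 13.1 and 11.2 CPM on d15, a log2 fold change of -2.29 (SE 0.26, adjusted p = 0.00136), and at 7.9, 6.3 and 6.9 CPM on d17. In C57BL/6J the d12 libraries were at 18.3, 13.9 and 26.4 CPM and in Cav1-null at 24.3, 24.1 and 18 CPM, and on d15 both strains were at 8.2 to 10 CPM. The early change was -1.23 in both (SE 0.24 and 0.14, adjusted p = 0.0272 and 0.000801). AKR/J d12 replicate 2 was the lowest of its group for Gins2 and also for the erythroid genes, at 3.56% of reads, while its trophoblast and yolk sac markers lay between those of the other 2 libraries. The part of these cells in the level of Gins2 was not tested.

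Gins3 was at 11.7 to 21.2 CPM over the d12 libraries of the 3 strains, 7.8 to 12.9 CPM on d15 and 4.1 to 7.1 CPM on d17. Its early change was DE in each strain, from -0.73 in AKR/J to -1.08 in C57BL/6J, and its late change was DE in AKR/J (-0.8) and Cav1-null (-0.81) and was -0.55 in C57BL/6J (SE 0.17, adjusted p = 0.0707). Gins4 was at 26.2 to 44.6 CPM on d12, 21.5 to 26.4 CPM on d15 and 14.9 to 20.4 CPM on d17, and the strains overlapped on d12 and on d17. On d15 Cav1-null overlapped both other strains, and AKR/J lay above C57BL/6J. The early change of Gins4 was -0.6 in AKR/J (SE 0.21, adjusted p = 0.0623) and in C57BL/6J (SE 0.18, adjusted p = 0.058), and -0.56 in Cav1-null (SE 0.11, adjusted p = 0.00734). Its late change of -0.39 in AKR/J (SE 0.1, adjusted p = 0.0266) was lost without d15 replicate 1, d15 replicate 3, d17 replicate 2 or d17 replicate 3.

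To compare levels between genes, CPM was divided by the length of the canonical transcript. Mcm7 had the highest level per kb of the ring genes in all 9 groups, followed by Mcm6 and Mcm2, and Mcm3 had the lowest in 8 of the 9, with Mcm4 lowest in C57BL/6J on d12. On that day C57BL/6J held 61.5 ± 8.4 CPM per kb of Mcm7, 48.5 ± 9.56 of Mcm6, 35.7 ± 8.24 of Mcm2, 21.6 ± 3.93 of Mcm5, 17.5 ± 4.55 of Mcm3 and 17.1 ± 3.34 of Mcm4 (SD, n = 3). Mcm3, Mcm4 and Mcm5 did not differ there beyond their spread. Of the GINS genes, Gins1 had the highest level per kb on d12 in each strain and Gins4 on d17 in each strain. In AKR/J on d12, Gins1 was at 61.6 ± 15.9 CPM per kb and Gins4 at 25.6 ± 6.08, whereas in C57BL/6J they were at 24.9 ± 6.49 and 22.4 ± 5.1, within their spread. Gins2 was the lowest in all groups other than AKR/J d12, where it was at 15.2 ± 4.57 and Gins3 at 7.22 ± 1.11. The rank of Gins2 depends on its canonical length of 3.9 kb. It also depends on how reads of its end, which overlaps Gse1, were assigned.

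Between strains, the called ring genes of AKR/J were lower than in C57BL/6J on d12 and d15 and the called GINS genes higher. The comparisons of AKR/J and of Cav1-null share the libraries of C57BL/6J. On d12, Gins1 and Gins2 were higher in AKR/J by 1.43 (SE 0.28, adjusted p = 0.012) and 1.72 (SE 0.32, adjusted p = 0.0116) on the log2 scale, and Mcm3 and Mcm6 were lower by -0.74 (SE 0.21, adjusted p = 0.0338) and -0.62 (SE 0.2, adjusted p = 0.0482). These were 2 higher and 2 lower of 10 genes, where 14.5% of all genes were higher and 14.1% lower. The counts on d12 were thus near the shares of all genes and by themselves say little about these genes. The other ring genes were at -0.22 to -0.59 and Gins3 and Gins4 at 0.24 and 0.31, none of them called. Removal of the GC and length trend left Gins1 and Gins2 called, and 1 model of all 27 libraries called 7, 2 higher and 5 lower. Leaving out C57BL/6J d12 replicate 2 left no call, and leaving out AKR/J replicate 1, AKR/J replicate 3 or C57BL/6J replicate 1 left Gins1 and Gins2 alone. Without AKR/J d12 replicate 2 there were 7 calls, 2 higher and 5 lower. Erythroid, trophoblast and yolk sac markers, described above, were higher in AKR/J in this comparison for 10 of 11, 2 of 4 and 4 of 4 genes tested, and 4 of 8 neuron genes were lower. Of 4 intermediate progenitor genes, 2 were lower (median -1.15, at 243 to 270 CPM in sum against 376 to 571), and of 4 endothelium genes, 3 were (median -1.32, at 43.1 to 60.1 CPM against 93.1 to 207). The part of these cells in the differences was not tested.

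On d15, 5 ring genes were lower in AKR/J than in C57BL/6J (22.3% of all genes were lower) and 3 GINS genes were higher (18.8% of all genes). Mcm2 was at 36.5, 38.3 and 49.4 CPM in AKR/J and 85.4, 81.9 and 65.5 CPM in C57BL/6J, with a difference of -0.86 (SE 0.13, adjusted p = 0.00185). Mcm3, Mcm4, Mcm5 and Mcm7 differed by -0.76, -0.43, -0.54 and -0.33 (adjusted p = 0.00307, 0.0155, 0.00441 and 0.0259), whereas Mcm6 was level at -0.02 (SE 0.07, adjusted p = 0.858), with a mean of 75.2 ± 1.51 CPM in AKR/J and 79 ± 4.61 CPM in C57BL/6J. Gins1 was at 22.1, 17.2 and 22.8 CPM in AKR/J and 11.7, 12.6 and 11.7 CPM in C57BL/6J, a difference of 0.82 (SE 0.12, adjusted p = 0.00147), Gins2 differed by 0.57 (SE 0.14, adjusted p = 0.0142) and Gins3 by 0.52 (SE 0.14, adjusted p = 0.0209). Gins4 was at 0.23 (SE 0.08, adjusted p = 0.0527). Mcm4, Mcm7 and Gins3 were not called without C57BL/6J d15 replicate 1 or replicate 2. With the trend of fold change over GC content and length removed, the calls were 3 lower and 1 higher, with Mcm5, Mcm7, Gins1 and Gins3 lost, and with library sizes alone they were 3 lower and 4 higher. In 1 model of all 27 libraries 3 were called, Mcm2 and Mcm3 lower and Gins1 higher.

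Mcm2 to Mcm5 and Mcm7 differed most from C57BL/6J in Cav1-null on d15, whereas Mcm6, Gins1 and Gins2 differed most in AKR/J on d12. All 6 ring genes were lower in Cav1-null and Gins1 was higher. These were 7 calls among 10 genes, and since 31.8% of all genes were lower and 26.8% higher in this comparison, a call by itself says little about these genes. Mcm2 was at 17.5, 17.7 and 19.3 CPM in Cav1-null against 85.4, 81.9 and 65.5 CPM in C57BL/6J, a difference of -2.05 (SE 0.11, adjusted p = 1.1e-07). Mcm3 differed by -1.96 (SE 0.1, adjusted p = 1.42e-07), Mcm5 by -1.41 and Mcm4 by -1.36, while Mcm7 and Mcm6 differed by -0.71 (SE 0.06, adjusted p = 3.84e-06) and -0.4 (SE 0.06, adjusted p = 0.00023). Gins1 was at 17.4, 18.9 and 19.7 CPM against 11.7, 12.6 and 11.7 CPM, a difference of 0.67 (SE 0.1, adjusted p = 0.00028). The libraries of the strains did not overlap for any of these 7 genes, nor for 65.5% of all genes. Gins2, Gins3 and Gins4 overlapped between the strains at 0.15, 0.15 and 0.17. With the trend over GC content and length removed, Gins1 was at 0.15 (adjusted p = 0.24) and was no longer called, while the 6 ring genes were, at -0.33 to -1.53, and with library sizes alone the calls were 6 lower and 3 higher.

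Most progenitor markers were lower along with the ring genes in that comparison. Of 9 radial glia genes, 8 were lower in Cav1-null on d15 and 1 was higher, with a summed level of 1370 to 1490 CPM against 1670 to 1730 CPM in C57BL/6J. Nes, the gene of the progenitor filament nestin, was at 56.6 to 65.1 CPM against 313 to 365 CPM. Fabp7, the radial glia gene that was higher, was at 849 to 939 CPM against 283 to 353 CPM. All 4 intermediate progenitor genes were lower, at 166 to 184 CPM in sum against 419 to 485 CPM. Of 16 mitosis genes, 10 were lower and 1 was higher, with a median of -0.59, and the 4 endothelium genes were lower, at 43.7 to 55.2 CPM in sum against 158 to 219 CPM. Of 8 neuron genes 2 were higher and 5 lower, and of 11 erythroid genes tested 6 were higher and 2 lower. In AKR/J on d15, 3 of 4 intermediate progenitor genes were lower than in C57BL/6J, at 169 to 277 CPM in sum, 4 of 8 neuron genes were lower, 3 radial glia genes were higher and 3 lower of 9, all 4 endothelium genes were lower, at 67.9 to 88.2 CPM in sum, and 8 of 11 erythroid genes were higher and 1 lower. The part of cell composition in these values was not tested.

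No member was called on d17 in AKR/J against C57BL/6J (edgeR's quasi-likelihood test, 0.742% of all genes called) or in Cav1-null against C57BL/6J (0.0491% called). At an unadjusted p under 0.05 there were 3 members in AKR/J, Mcm6, Gins1 and Gins2, and 2 in Cav1-null, Mcm2 and Mcm3, where 21.2% and 7.55% of all genes had such a p. DESeq2 called 0 members in both, while 1 model of all 27 libraries called 1 member in AKR/J. The d17 libraries of C57BL/6J spread from 9.5 to 32.7 CPM for Mcm2. Replicate 2 was the lowest of them for each ring gene and the highest for Gins1 and Gins2, at 10.3 and 5.6 CPM. It was also the lowest in the summed markers of intermediate progenitors, at 69.1 CPM against 154 and 118, and of endothelium, at 51.5 against 205 and 94, and the part of these cells was not tested. Without it, 3 members were called in AKR/J, Mcm6 and Gins1 among them, and 5 were lower in Cav1-null, Mcm2 and Mcm3 among them. On d12 no member and no gene at all was called in Cav1-null against C57BL/6J (0%), and no member was without Cav1-null d12 replicate 3, the library low in mitosis markers. Cav1 itself was thus not called either. Over all days Cav1 was at 0 to 0.551 CPM in Cav1-null and at 10.7 to 43 CPM in C57BL/6J. The absence of calls on d12 therefore says little about the members. Here 4 members had an unadjusted p under 0.05, as did 22.1% of all genes. All of them were at a lower mean in Cav1-null, Mcm2 at -0.95 (SE 0.25, adjusted p = 0.107), Mcm3 at -1.11 (SE 0.25, adjusted p = 0.105), Mcm4 at -0.56 and Mcm5 at -0.65, with no overlap between the strains, as was so for 29.5% of all genes. DESeq2 called 3 of them, Mcm2, Mcm3 and Mcm5, and Mcm3 was called without C57BL/6J d12 replicate 3.

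**Figure D3:**
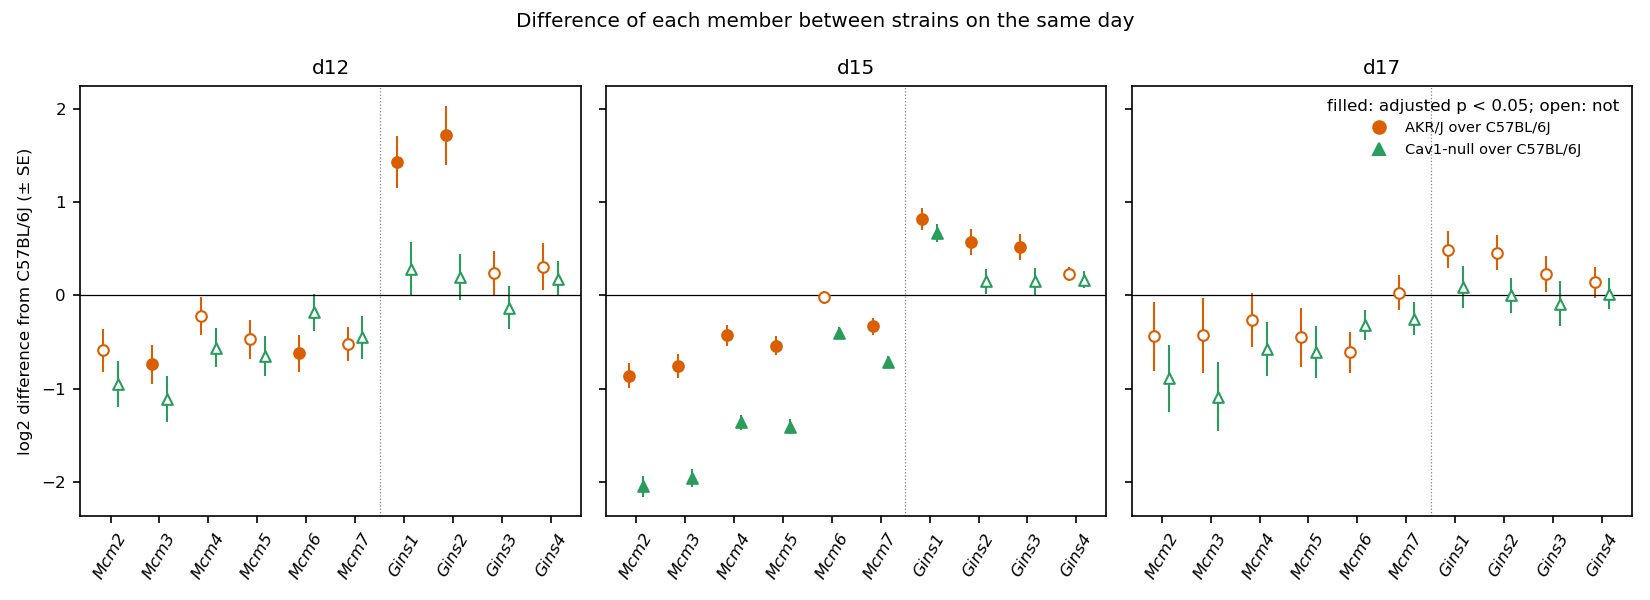
Differences in log2 expression of AKR/J and of Cav1-null from C57BL/6J on d12, d15 and d17 for each of the 10 genes, as points with bars of 1 SE. On d15 the ring genes of Cav1-null lie between -2.05 and -0.4 and Gins1 at 0.67, and the SE is larger on d17 than on d15.

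The interaction of strain and day asked if a phase had a different change than in C57BL/6J, and no member was called in any of the 4 tests with edgeR's quasi-likelihood test. The share of all genes called was 0.0711% for AKR/J and 0.00472% for Cav1-null in the early phase, and 0.00468% and 0.252% in the late phase. For AKR/J, 2 members had an unadjusted p under 0.05 in the early phase, Mcm6 with a smaller fall than in C57BL/6J (0.62, SE 0.2, adjusted p = 0.176) and Gins2 with a larger one (-1.13, SE 0.36, adjusted p = 0.17), and 1 in the late phase, Mcm6 (-0.53, adjusted p = 0.654), where 16.3% and 7.57% of all genes had such a p. For Cav1-null, 4 members had such a p in the early phase, Mcm2 (-1.09, SE 0.3, adjusted p = 0.207), Mcm3, Mcm4 and Mcm5, and 4 in the late phase, Mcm2 (1.11, SE 0.41, adjusted p = 0.157), Mcm4, Mcm5 and Gins1, where 15% and 21.9% of all genes did. DESeq2 called 2 members in the early phase of Cav1-null, Mcm2 and Mcm4, and 0 in each of the other 3 tests. In 1 model of all 27 libraries, Gins2 was called in the early test of AKR/J. Without a filter on low counts, Mcm2 was called in the late test of Cav1-null. The tests rested on single libraries. Mcm6 and Gins2 were called in the early phase of AKR/J without AKR/J d12 replicate 2, Mcm2 and Mcm3 in that of Cav1-null without C57BL/6J d12 replicate 2, and 6 members in the late phase of Cav1-null without C57BL/6J d17 replicate 1. A different course of the strains was therefore not shown by these tests, nor was an equal course.

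Ratios within a library do not depend on how libraries are scaled, and they are given as a description without a test. They can depend on transcript length and GC content, with Gins1 at 1.12 kb and Mcm3 at 5.43 kb. The GC and length trend was not removed from them. The summed GINS level was 46%, 27% and 47% of the summed ring level in AKR/J on d12, 8.94% to 16.1% in C57BL/6J and 19.4% to 24.5% in Cav1-null, so that the strains did not overlap. On d15 it was 20.9% ± 1.08 for AKR/J, 11% ± 0.584 for C57BL/6J and 28.7% ± 0.921 for Cav1-null (SD, n = 3), again without overlap. On d17 it was 30.4% ± 4.14, 21.8% ± 8.73 and 28% ± 1.25, and the C57BL/6J libraries, at 13%, 30.4% and 21.9%, overlapped those of both other strains. C57BL/6J thus had the lowest ratio on d12 and d15, without removal of the GC and length trend.

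**Figure D4:**
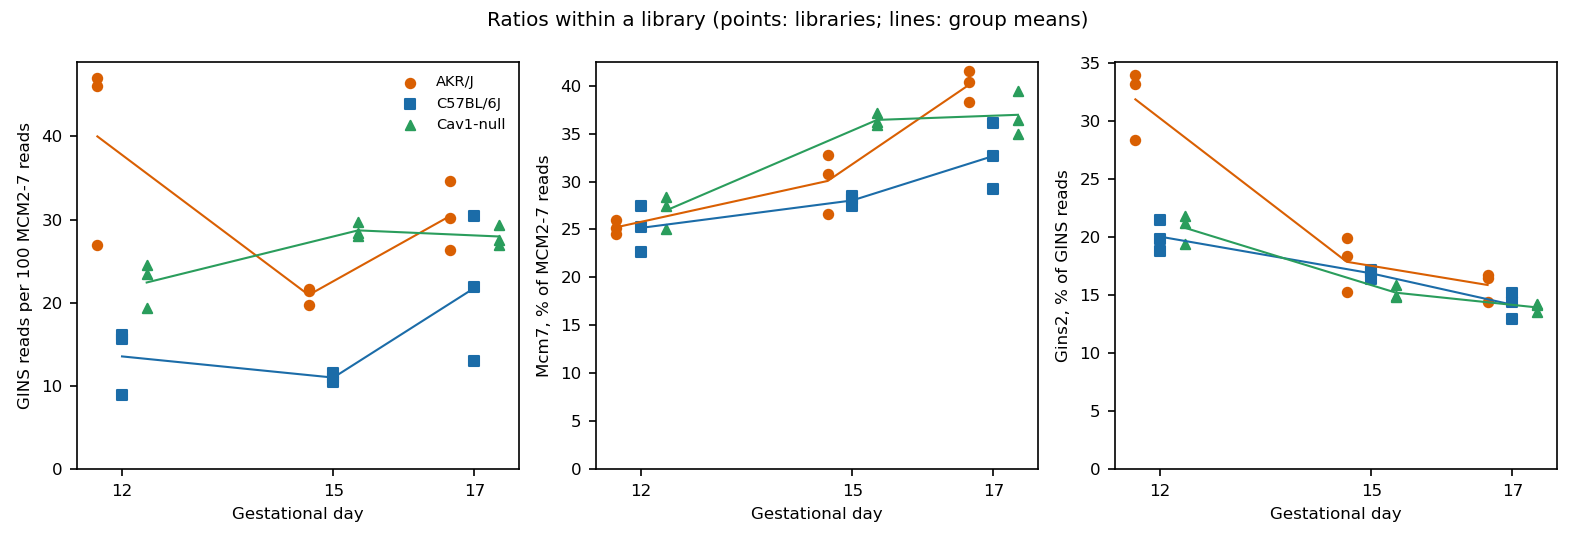
GINS reads per 100 ring reads (left), Mcm7 in percent of ring reads (middle) and Gins2 in percent of GINS reads (right) by gestational day, with a point for each library and a line through the mean of 3. The left ratio is lowest in C57BL/6J on d12 and d15, the share of Mcm7 is higher on d17 than on d12 in each strain, and that of Gins2 is highest in AKR/J on d12.

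Within the ring, the share of Mcm7 in the summed reads of Mcm2 to Mcm7 was 25.2% ± 0.76 on d12 and 40.1% ± 1.67 on d17 in AKR/J, 25.2% ± 2.38 and 32.7% ± 3.48 in C57BL/6J and 27% ± 1.69 and 37% ± 2.33 in Cav1-null. On d15 it was already 36.4% ± 0.684 in Cav1-null and 28.1% ± 0.561 in C57BL/6J. The shares of Mcm2 and Mcm3 were lower on d17 than on d12, with Mcm3 at 11.3% and 7.15% in AKR/J, 12.9% and 7.58% in C57BL/6J and 9% and 5.15% in Cav1-null. Within GINS, the share of Gins4 was 20.3% on d12 and 42.1% on d17 in AKR/J, 33.9% and 46.8% in C57BL/6J and 34.6% and 47% in Cav1-null, while that of Gins2 was 31.8% and 15.8%, 20% and 14.2%, and 20.8% and 13.9%. The summed ring level relative to 16 mitosis genes was higher on d17 than on d12, at 20.9% ± 0.329 and 31.2% ± 1.47 in AKR/J, 30.8% ± 7.04 and 45.6% ± 7.1 in C57BL/6J and 23.7% ± 3.28 and 38% ± 1.63 in Cav1-null. The mitosis genes thus lost more of their level than the ring genes in each strain.

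The members were compared as profiles over the 9 group means of log2 CPM, which share strain, day and scaling, so that the correlations are a description. The 15 pairs of ring genes correlated at 0.91 to 1 (median 0.98) and the 6 pairs of GINS genes at 0.94 to 0.99 (median 0.94), whereas the 24 pairs of a ring gene with a GINS gene were at 0.66 to 0.89 (median 0.79). With the mean profile of the 10, Mcm4 correlated best (0.981) and Gins1 least (0.839). Among 12379 other genes with a mean of at least 5 CPM, the profiles most like the mean were those of Napepld and Rfwd3 (0.997 each) and Tmem98, Exo1 and Cdca5 (0.996 each). Exo1, the gene of a DNA exonuclease of mismatch repair, was at 38 CPM on d12 and 5.9 CPM on d17 in AKR/J, and Cdca5, the gene of the cohesin regulator sororin, at 19.1 and 3.84 CPM.

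Part of the other genes of replication fell with the members, counted in lists of which the largest called change is named. Of all genes tested, 14% (AKR/J), 7.8% (C57BL/6J) and 11.8% (Cav1-null) were lower in the early phase. In the late phase 10.4%, 5.58% and 12.8% were lower. Of 10 genes of origin licensing, the step that loads the ring, 8 (AKR/J), 6 (C57BL/6J) and 4 (Cav1-null) fell early, and 3, 2 and 4 fell late, with 1 higher in AKR/J. Gmnn, the gene of the licensing inhibitor geminin, changed most in the early phase of AKR/J (-2.35, SE 0.24, adjusted p = 0.00104), and Cdc6, the gene of the loading factor, in that of Cav1-null (-1.52, SE 0.24, adjusted p = 0.00317) and between d15 and d17 of C57BL/6J (-1.65, SE 0.29, adjusted p = 0.0156). Of 13 genes that activate the helicase or protect the fork, 9, 11 and 10 were lower in the early and 11, 9 and 11 in the late phase. Tipin, of the fork protection complex, changed most in the early phase of AKR/J (-2.46, SE 0.34, adjusted p = 0.00255), Cdc45, the partner of GINS, in that of C57BL/6J (-1.24, SE 0.18, adjusted p = 0.0178) and Mcm10, an activator of the helicase, in that of Cav1-null (-1.69, SE 0.24, adjusted p = 0.00177). Ticrr, the gene of the activator treslin, changed most between d15 and d17 of C57BL/6J (-1.83, SE 0.24, adjusted p = 0.00742).

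Genes downstream of the helicase were also lower in part, to be read beside the shares of all genes given above. Of 12 genes of the replicative polymerases, 6, 8 and 7 were lower in the early and 7, 4 and 8 in the late phase, in the same order of strains, with 1 higher in the late phase of AKR/J. Of 15 genes of the clamp, the lagging strand and chromatin assembly, 8, 13 and 12 were lower in the early and 11, 6 and 11 in the late phase, led in the early phase by Rpa3 in AKR/J (-2.78, SE 0.43, adjusted p = 0.0037), Pcna in C57BL/6J (-1.34, SE 0.21, adjusted p = 0.0183) and Chaf1a in Cav1-null (-1.23, SE 0.2, adjusted p = 0.00365). Of 6 genes of deoxynucleotide supply, 5 to 6 were lower in each phase of each strain. Of 13 genes of the E2F and RB family, 8 to 10 were lower in each phase, with 1 higher in both phases of AKR/J, and 1 from d15 to d17 of Cav1-null. All 16 mitosis genes were lower in each phase, other than the early phase of AKR/J with 14. Between d12 and d17 the median log2 fold changes were -1.05, -0.67 and -0.65 for licensing, -1.63, -1.64 and -1.42 for activation, and -2.33, -2.62 and -2.47 for mitosis in AKR/J, C57BL/6J and Cav1-null, compared with -1.94, -2.05 and -2.05 for the ring genes and -1.96, -1.62 and -1.7 for the GINS genes.

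Of the other MCM family genes, Mcm8, a helicase gene of recombination repair, was lower in each comparison of days other than d15 to d17 of C57BL/6J (-0.42, SE 0.19, adjusted p = 0.167), with -1.36, -1.75 and -1.41 between d12 and d17 in the 3 strains. Its partner Mcm9 was called in the early phase of AKR/J alone (-0.65, SE 0.17, adjusted p = 0.0241) and Mcmdc2, a gene of meiosis, in no comparison of days (edgeR's quasi-likelihood test). On d15, Mcm8 was higher in AKR/J than in C57BL/6J by 0.56 (SE 0.13, adjusted p = 0.0111), and Mcm9 was higher in Cav1-null by 0.42 (SE 0.11, adjusted p = 0.00631). Mcmdc2 was at 2.18 ± 0.444 CPM in C57BL/6J, lower in AKR/J at 0.414 ± 0.152 CPM (adjusted p = 0.00155) and higher in Cav1-null at 4.51 ± 0.638 CPM (adjusted p = 0.00181). Mcm9 and Mcmdc2 in Cav1-null thus did not have the direction of the ring genes on d15, where 26.8% of all genes were higher.

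Reads on splice junctions gave a second readout of the same libraries. The deposited table held 25 junctions of 8 members, of which 15 junctions of 7 members had reads in all 27 libraries, and none of Mcm4 or Gins4. Junctions with multi-mapped reads, short overhangs or few reads were left out by the authors, so that a 0 need not mean the absence of reads. On the 4 such junctions of Mcm2, the d15 libraries had 330 to 520 reads in C57BL/6J, 188 to 252 in AKR/J and 62 to 79 in Cav1-null, or 11.6 ± 2.33, 7.05 ± 1.14 and 2.48 ± 0.353 RPM (junction reads relative to the unscaled total of reads on genes, without the TMM factors of CPM). The groups did not overlap. Since junction levels carry no TMM factors, gene levels are set beside them here in CPM with library sizes alone. Between d12 and d15 of AKR/J, the means were 6.88 ± 4.22 and 7.05 ± 1.14 RPM for Mcm2, 2.7 ± 1.41 and 3.85 ± 0.103 for Mcm6 and 10.4 ± 2.57 and 12.7 ± 1.71 for Mcm7. The gene levels were 60.5 and 43.9 CPM for Mcm2, 69.8 and 80.2 for Mcm6 and 94 and 106 for Mcm7, so that Mcm2 alone of these was lower on d15 in the gene level and not on its junctions. With TMM, all 3 gene levels were lower on d15. The junction levels were not tested. On the junction of Gins1, the d12 libraries had 254 to 371 reads in AKR/J, 114 to 226 in C57BL/6J and 131 to 242 in Cav1-null, and on d15 they had 103 to 141, 61 to 77 and 82 to 113. AKR/J was the highest on both days in mean. These junction reads lie inside Gins1 and are spliced, away from the antisense overlap at its start.

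Mcm7 was read from 2 annotated first exons that join the same second exon, and their proportion differed between days. The upstream first exon, at chr5:138169988-138170684 on the minus strand, holds the start codon of the main transcript at 138170016 to 138170018. The downstream first exon, at chr5:138169072-138169279, belongs to the transcript Mcm7-204, whose annotated start codon lies in exon 4, at 138167688 to 138167690. The junction of the upstream exon (chr5:138168659-138169987) had 2803 reads in all libraries and that of the downstream exon (chr5:138168659-138169071) 1319. Another donor at 138169076, not annotated, had 116 reads and was left out of the shares. The RefSeq start site of the first Mcm7 window, 138170145, lies in the upstream exon, and this window held 2 E2F words, 1 of which is printed above. The other RefSeq start site, 138169528, lies between both exons and its window held none. The 30 bases before it are shown for comparison.
Mcm7, second start site, chr5:138169529-138169558 (minus): gccctccaagcggaagtagaggcgggcgga

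In AKR/J, the upstream exon took 88.6%, 79.9% and 63.6% of the reads of both junctions on d12, 74.6%, 61.5% and 73.3% on d15 and 43.5%, 38.2% and 42.4% on d17. In C57BL/6J it took 76.6%, 84.4% and 82.3% on d12, 81.8%, 77.1% and 62.2% on d15 and 62.1%, 41.7% and 52.6% on d17. In Cav1-null it took 75%, 69.7% and 64.2% on d12, 47.8%, 52.5% and 41.7% on d15 and 26.2%, 25.5% and 49.2% on d17. The d17 libraries thus lay below those of d12 in each strain, without overlap. The d15 libraries of Cav1-null lay below those of C57BL/6J and AKR/J. The shares rested on 36 to 390 reads a library, and the 95% exact Clopper-Pearson intervals, which cover counting error only, ran from 25.5% to 59.2% for the library with 36 reads (C57BL/6J d17 replicate 2) and from 80.4% to 87.8% for that with 390 (C57BL/6J d12 replicate 2).

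**Figure D5:**
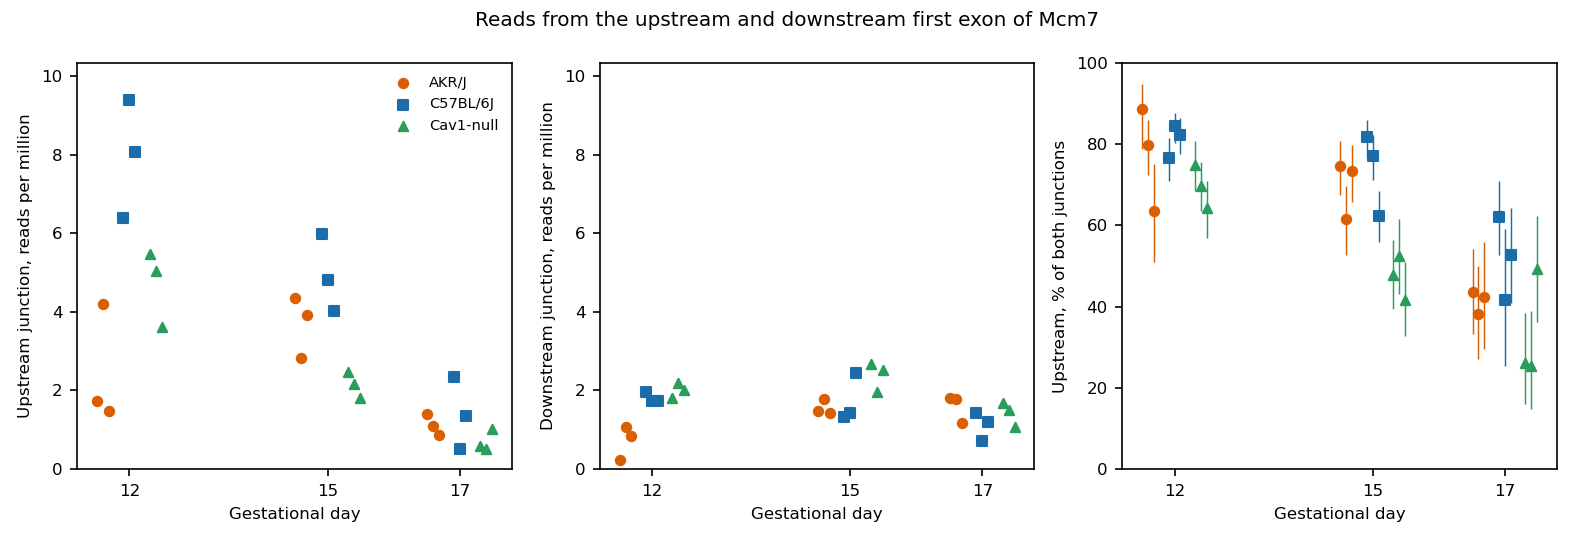
RPM on the Mcm7 junction of the upstream first exon (left) and of the downstream first exon (middle), and the upstream share of both in percent with bars of the 95% Clopper-Pearson interval (right), by gestational day, with a point for each library. In the right panel each d17 library lies below the d12 libraries of its strain, and the d15 libraries of Cav1-null lie at 41.7% to 52.5%, below the 62.2% to 81.8% of C57BL/6J.

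The junction of the upstream exon had 7.95 ± 1.5, 4.95 ± 0.986 and 1.39 ± 0.914 RPM on d12, d15 and d17 in C57BL/6J, 4.7 ± 0.97, 2.14 ± 0.331 and 0.713 ± 0.277 in Cav1-null and 2.47 ± 1.51, 3.69 ± 0.784 and 1.12 ± 0.262 in AKR/J (SD, n = 3). The junction of the downstream exon was at 1.81 ± 0.121, 1.74 ± 0.62 and 1.11 ± 0.365 in C57BL/6J, 2 ± 0.18, 2.38 ± 0.376 and 1.42 ± 0.311 in Cav1-null and 0.708 ± 0.433, 1.56 ± 0.184 and 1.59 ± 0.352 in AKR/J. In C57BL/6J and Cav1-null the upstream junction was thus lower on d17 by more than the spread, and the downstream junction changed less. No test of these shares and levels was made.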

How the data were processed

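RNA of 27 libraries was analysed, 3 for each strain and day of the labels. The authors trimmed reads with cutadapt and fastp and mapped them to GRCm39 with STAR, and they deposited whole read counts per gene and per splice junction without normalization. The counting tool and its strand setting were not given in the sources used here. The members, gene lists and tests were chosen with earlier results of these data known. Lists hold genes of replication, mitosis and cell types. All members are named, as are the gene of each replication list with the largest called change in a comparison of days and the 5 genes with the most similar profile.

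Counts were fitted in R 4.3.3 with edgeR 4.0.16 (filterByExpr, TMM, quasi-likelihood test) on the libraries of each comparison, and p-values were adjusted by the Benjamini-Hochberg method over all genes kept. All 10 members were kept in each comparison. CPM used TMM sizes over 27 libraries. SE was taken as |log2 fold change|/√F. DESeq2 1.42.0, other scalings and filters, 1 model of all libraries, a replicate block and the omission of single libraries were the alternatives. Removal of the GC and length trend and of the erythroid, trophoblast and yolk sac genes was chosen after seeing the data. The fits were tested on simulated data. Python 3.11.15 was used for junctions and promoters.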

Additional observations from a re-analysis of the deposited data

How the results depend on the processing

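With 3 libraries a group, single libraries decided many calls. Over the libraries left out in turn, the number of members called was 2 to 8, 6 to 10 and 10 to 10 for AKR/J (d12 to d15, d15 to d17 and d12 to d17), 0 to 8, 0 to 7 and 9 to 10 for C57BL/6J, and 7 to 10, 10 to 10 and 10 to 10 for Cav1-null. On d12, d15 and d17 it was 0 to 7, 5 to 7 and 0 to 3 for AKR/J against C57BL/6J and 0 to 1, 7 to 8 and 0 to 5 for Cav1-null against C57BL/6J. In the interaction tests it was 0 to 2 and 0 to 0 for AKR/J and 0 to 2 and 0 to 6 for Cav1-null in the early and late phases.

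A pairing of libraries by replicate number was not shown, since correlations of their deviations were not above 0.1 in all pairs of any comparison. They ran from -0.25 to 0.18, and a pairing is not excluded by them. With a replicate block, 0 members and 0 of all genes were called in the early phase of C57BL/6J, against 8 members without it, and no other count of members moved by over 1.5 times. With library sizes alone, 2 members were called in the early phase of AKR/J (7 with TMM), and the early log2 fold changes of Mcm6 and Mcm7 there were 0.2 and 0.18 in place of -0.22 and -0.26. This scaling moved the median of all genes to 0.46 in that comparison, to 0.35 between d12 and d17 of AKR/J, to -0.38 for AKR/J against C57BL/6J on d12 and to 0.23 and 0.21 for AKR/J and Cav1-null against C57BL/6J on d15. Under it, the summed ring level was 375 CPM in AKR/J d12, 426 in C57BL/6J d15, and 227 and 141 in Cav1-null d15 and d17, and the summed GINS level was 140 and 73.8 in AKR/J d12 and d15, 46.7 in C57BL/6J d15, and 65.1 and 39.3 in Cav1-null d15 and d17.

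In 1 model of all 27 libraries, 6 members were called in the late phase of Cav1-null, 7, 3 and 1 for AKR/J against C57BL/6J on d12, d15 and d17, 2 for Cav1-null against C57BL/6J on d12 and 1, Gins2, in the early interaction of AKR/J. Removal of the GC and length trend left 2 and 4 calls for AKR/J against C57BL/6J on d12 and d15. DESeq2 called 3 members for Cav1-null on d12 and 2 in its early interaction. Without a filter on low counts, 2 members were called for Cav1-null on d12 and 1, Mcm2, in its late interaction. The cause of these changes was not tested. The other alternatives kept each count within 1.5 times. Removal of the erythroid, trophoblast and yolk sac genes left the counts of the AKR/J comparisons with d12 as they were, which leaves the reads of the members in place and does not test whether these cells hold their RNA. First-exon shares of Mcm7 rested on as few as 36 reads.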
